A study of Mus musculus with 6 samples.

Results

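The alveolar fibroblast genes Tcf21, Npnt, Wnt2, Itga8, Limch1, Plin2, Ces1d, Pdgfra, Inmt and Mfap4 were followed in mouse lungs with and without a TNF transgene. These 10 symbols, given as a list of genes known from this cell type, were each found as a row of the count table and make up 10 of its 49568 genes. The data were 3 lungs of TNF-Tg mice and 3 lungs of WT mice (TNF+ and TNF- in the study's notation), all females aged 4 months on a C57BL/6 background, with 1 poly(A) RNA library per mouse. TNF-Tg mice overexpress a human TNF-alpha gene present in 1 copy, and the WT controls were littermates without it. Beyond the strain background the groups shared no allele or treatment, and the promoter of the transgene and the cells that express it are not given in the sources used here. Reads of the human transgene were not analysed here, so the genotypes are as labelled. The question was whether genes of this fibroblast differed in level between the genotypes. Total counts per lung lay between 25396923 and 32529408, so that the floor of 3 counts, which concerns counting error alone, corresponded to 0.0922 to 0.118 CPM, the usual unit of counts relative to the library total. TNF-Tg replicate 1 had 5.22% of its counts on Gm42418, where the rest had at most 0.274%, and WT replicate 1 had 56570 counts of the squamous keratin Krt4, against at most 8. Member calls that are lost without these 2 lungs, and counts that move by 1.5 times or more, are given beside their values.

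Alveolar fibroblasts are stromal cells of the alveolar wall. They lie beside alveolar type 2 cells, which make surfactant, and are known for supplying those cells with growth signals, for building elastic and basement membrane matrix and, in rodents, for storing retinoids and neutral lipid in droplets. The transcription factor Tcf21 marks their lineage from the embryonic lung onwards. Several of the members are also transcribed by other lung cells, for example Npnt by alveolar type 1 cells, Plin2 by macrophages and Mfap4 by smooth muscle. In bulk RNA from whole lungs, fewer cells of a type and less RNA per cell cannot be told apart.

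Of the 10 genes, 9 were lower in TNF-Tg lungs at an adjusted p-value under 0.05, and none was higher (0 of 10). All 10 passed the filter on low counts. The test was edgeR's quasi-likelihood test, adjusted over all 19199 genes tested after Benjamini and Hochberg, and of these genes 47.4% were called in either direction, 23.4% lower and 24.0% higher. These are 9096 called genes, against 6064 without TNF-Tg replicate 1 and WT replicate 1. The log2 fold change of TNF-Tg over WT lungs (log2FC) is given with its standard error (SE). The largest falls were those of Wnt2 (log2FC -3.04), Inmt (-2.65), Npnt (-2.51), Tcf21 (-2.13) and Itga8 (-1.78), followed at some distance by Limch1, Mfap4, Pdgfra and Ces1d, while Plin2 had a positive value that did not pass the test. The median log2FC of the 10 was -1.44, against 0.03 over all genes tested. In 9 of the 10 genes, every TNF-Tg lung lay below every WT lung, as in 28.2% of all tested genes, and the groups did not overlap in either direction in 58.7%. The count of 9 was also obtained with DESeq2, with limma-voom, with other scalings and filters and without WT replicate 3, and it was 8 without each of the other 5 lungs and 8 without TNF-Tg replicate 1 and WT replicate 1 together, with Pdgfra the gene that was lost each time.

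**Figure D1:**
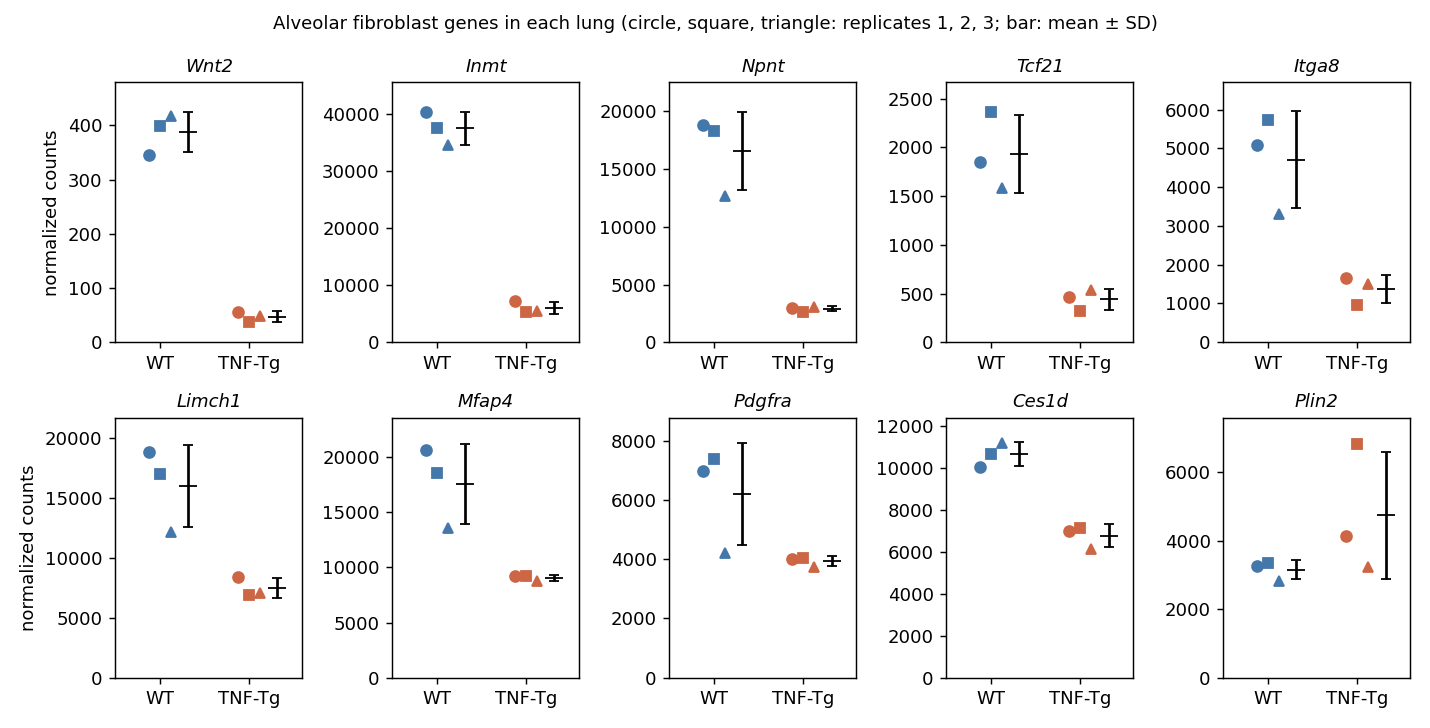
Normalized counts (y axis, linear, from 0) of the 10 genes in each lung, by genotype on the x axis and in the order of their log2 fold changes, with WT in blue, TNF-Tg in orange, and the mean ± SD over 3 lungs as bars. The groups are apart for 9 genes and overlap for Plin2, in which TNF-Tg replicate 2 stands at 6837.

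Tcf21 encodes a basic helix-loop-helix transcription factor of the lung mesenchyme (ENSMUSG00000045680.8, chromosome 10, 22817281 to 22820174, minus strand, mm10). Its normalized counts, which are counts divided by the TMM-scaled library size and multiplied by the mean of that size, were 1848, 2368 and 1579.9 in WT lungs and 469, 323 and 534 in TNF-Tg lungs. The highest TNF-Tg lung was thus well under the lowest WT lung. The means were 1932 ± 401 and 442 ± 108 (SD, n = 3 each), a log2FC of -2.13 (SE 0.22, 95% interval -2.62 to -1.63, adjusted p = 0.000143 by edgeR), so that its level fell by 77.1%. TNF-Tg replicate 2 was the lowest of its group, with a deviation of -0.42 from the group mean on the log2 scale.

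Other transcription factors of the lung mesenchyme moved in both directions. Of 18 such genes 17 were tested, 8 were lower, 2 higher, and the median log2FC was -0.50. Osr1, a zinc finger factor of early mesoderm, fell most, from 244, 281 and 427 to 117, 83.8 and 151 normalized counts (log2FC -1.43, SE 0.28, adjusted p = 0.00395 by edgeR). Prrx1, a homeobox factor of fibroblasts, rose most, from 239.9, 235 and 234 to 581, 407 and 655 (log2FC 1.21, SE 0.18, adjusted p = 0.00103 by edgeR). The fall of Tcf21 was larger in size than the change of any of the 17, though the differences between genes were not tested.

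Wnt2 encodes a secreted Wnt ligand that acts through the canonical pathway and is needed, together with Wnt2b, for lung formation in the embryo (ENSMUSG00000010797.6, chromosome 6, 17988940 to 18030585, minus strand). It was the member with the fewest counts and the largest fall. WT lungs held 362, 417 and 469 raw counts and TNF-Tg lungs 43, 36 and 51, all far above the floor of 3. In normalized counts these were 346, 399.7 and 417 against 56.7, 37.2 and 48.1, so that the groups lay far apart. The log2FC was -3.04 (SE 0.20, adjusted p = 1.87e-05 by edgeR), or 8.20-fold lower.

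The Wnt genes around Wnt2 were mostly lower. Of 21 receptors, ligands and canonical targets 15 were lower and 0 higher, with a median log2FC of -0.99. The related ligand gene Wnt2b had 239, 173 and 213 normalized counts in WT and 44.8, 63.1 and 38.7 in TNF-Tg lungs (log2FC -2.09, SE 0.24, adjusted p = 0.000286 by edgeR). Axin2, a general target of canonical Wnt signalling, went from 927, 863 and 689 to 365, 402 and 401 (log2FC -1.08, SE 0.14, adjusted p = 0.000448 by edgeR). Both were lower in every TNF-Tg lung. The largest fall of the list was that of Lgr5, a receptor for R-spondins, which had 23, 14 and 22 counts against 2, 1 and 5 and so lay near the floor of 3 counts in TNF-Tg lungs.

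Inmt encodes indolethylamine N-methyltransferase, an enzyme that methylates tryptamine and related amines and is abundant in lung (ENSMUSG00000003477.5, chromosome 6, 55170626 to 55175043, minus strand). It had 40395, 37522 and 34589.5 normalized counts in WT lungs and 7194, 5220.3 and 5548 in TNF-Tg lungs. The fall was 6.26-fold (log2FC -2.65, SE 0.16, adjusted p = 1.46e-05 by edgeR), and 1.31% of all tested genes had a more negative log2 fold change than Inmt. By p-value Inmt ranked 225 among the 19199 genes, ahead of Wnt2 at 280 and Npnt at 356.

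The sequences before the start sites of Tcf21, Wnt2, Inmt and Plin2 are shown because the first is the lineage factor, the next pair fell most, and Plin2 was the member that did not fall. They were taken from RefSeq promoter windows on GRCm38.p6, which held 8 of the 10 members, and bases that lie in an annotated exon of GENCODE M21 were left off. Each is written 5′ to 3′ on the strand of its gene (minus for all 4), with capitals marking matches to 1 of 3 motifs on either strand, namely the E-box CANNTG, to which helix-loop-helix factors such as TCF21 bind, the TATA motif TATAAA, and a loose form of the NF-kB motif, GGGA and CC with 4 free bases between them. The regions were chr10:22820175-22820393, chr6:18030586-18030695, chr6:55175044-55175240 and chr4:86670061-86670309.
Tcf21: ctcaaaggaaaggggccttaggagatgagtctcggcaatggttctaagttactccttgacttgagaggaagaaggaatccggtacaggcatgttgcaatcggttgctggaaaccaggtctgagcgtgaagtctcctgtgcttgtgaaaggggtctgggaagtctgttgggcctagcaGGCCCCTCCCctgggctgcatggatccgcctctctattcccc
Wnt2: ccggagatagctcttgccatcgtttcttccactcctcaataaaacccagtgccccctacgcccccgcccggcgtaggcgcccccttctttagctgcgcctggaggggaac
Inmt: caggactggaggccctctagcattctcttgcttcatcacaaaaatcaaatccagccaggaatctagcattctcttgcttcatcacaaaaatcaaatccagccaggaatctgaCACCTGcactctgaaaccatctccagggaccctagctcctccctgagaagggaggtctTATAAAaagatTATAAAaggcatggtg
Plin2: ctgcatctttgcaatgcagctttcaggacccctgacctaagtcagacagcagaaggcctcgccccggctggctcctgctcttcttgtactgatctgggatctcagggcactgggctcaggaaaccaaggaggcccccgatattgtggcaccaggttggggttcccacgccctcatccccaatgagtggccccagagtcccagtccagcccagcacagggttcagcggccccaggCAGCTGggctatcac
In the whole 250 bases before the RefSeq start, Inmt held 2 TATAAA matches and 2 E-boxes, of which CAGCTG lies 14 bases before that start and inside the GENCODE exon, so that it is not in the run printed above. Plin2 held a single E-box, also CAGCTG, 16 bases before its start. Neither Tcf21 nor Wnt2 held an E-box there (0 each), and the Tcf21 run has 1 match to the loose NF-kB motif. Of the 32851 such windows in the RefSeq table, 66.2% held CANNTG, 13.0% CAGCTG (a special case of it), 12.4% TATAAA and 17.6% the loose NF-kB motif, and the matches are a description of these letters.

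Npnt and Itga8 encode a ligand and its receptor. Nephronectin, the product of Npnt (ENSMUSG00000040998.18, chromosome 3, 132881745 to 132950291, minus strand), is a matrix protein of basement membranes that binds integrin alpha 8 beta 1, whose alpha chain is encoded by Itga8 (ENSMUSG00000026768.10, chromosome 2, 12106632 to 12301922, minus strand). Npnt had 18772, 18287 and 12650.1 normalized counts in WT lungs and 3002, 2638 and 3096 in TNF-Tg lungs, a log2FC of -2.51 (SE 0.17, adjusted p = 2.39e-05 by edgeR). The SD of the TNF-Tg values was 8.31% of their mean, whereas WT replicate 3 was clearly under the other WT lungs. Itga8 stood at 5081, 5727 and 3309 in WT and 1667, 959 and 1498 in TNF-Tg lungs. WT replicate 3 was again the lowest WT lung and TNF-Tg replicate 2 the lowest of all 6. The log2FC of Itga8 was -1.78 (SE 0.25, adjusted p = 0.000832 by edgeR), which is 3.42-fold lower, against 5.69-fold for Npnt. A gene on the opposite strand, E030013I19Rik, covers 5.05% of the exon bases of Itga8, and the strand setting of the counting is not given, so the reads there cannot be assigned with certainty.

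The log2FC of the ligand gene was larger in size than that of the receptor gene, and the difference was examined lung by lung. The log2 ratio of Npnt to Itga8, taken from log2 CPM with a prior count of 2, was 1.89, 1.67 and 1.93 in WT lungs and 0.85, 1.46 and 1.05 in TNF-Tg lungs. The means were 1.83 ± 0.14 and 1.12 ± 0.31 (SD, n = 3), and all TNF-Tg ratios were under all WT ratios. The difference was -0.71, with p = 0.1 in an exact permutation test (two-sided), which is as low as 3 lungs against 3 can go, so this design cannot reach 0.05. It was 1 of 3 ratios tested and the adjusted p over the 3 was also 0.1. Among 14 other genes of the nephronectin and integrin alpha 8 list, 8 were lower and 0 higher, with a median log2FC of -0.57. The count was 5 without TNF-Tg replicate 1 and WT replicate 1. Itgb1, the beta chain that pairs with alpha 8, had a log2FC of -0.12 (SE 0.14, adjusted p = 0.508 by edgeR, 95% interval -0.44 to 0.20), and Frem1, a matrix protein of the basement membrane zone, fell most, from 381, 388 and 264 to 40.9, 42.4 and 31.2 normalized counts (log2FC -3.18, SE 0.23, adjusted p = 2.86e-05 by edgeR).

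**Figure D2:**
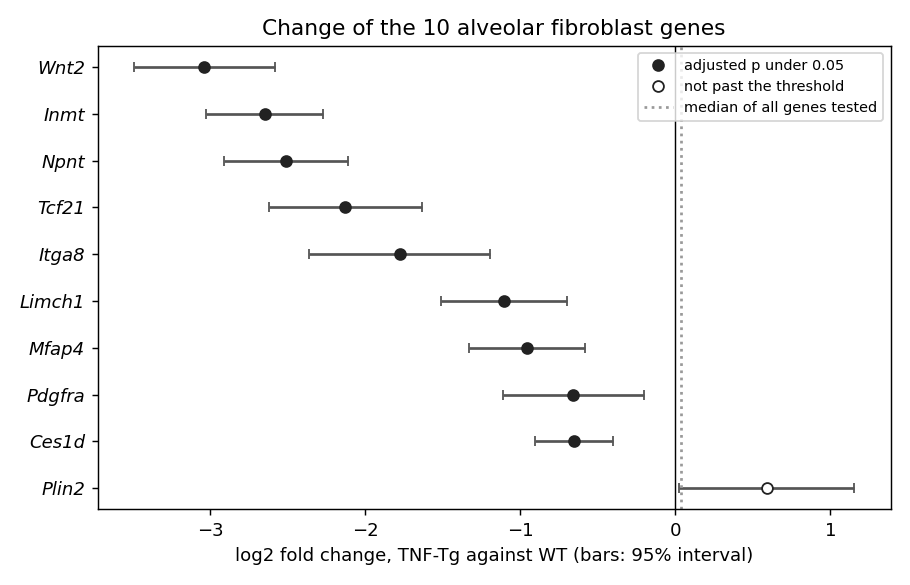
Log2 fold change of each of the 10 genes between TNF-Tg and WT lungs (x axis, log2 scale) with its 95% interval from edgeR's quasi-likelihood fit. Filled points passed an adjusted p of 0.05, the dotted line is the median of all genes tested, and the intervals of Wnt2, Inmt and Npnt lie wholly below those of Limch1, Mfap4, Pdgfra and Ces1d.

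Pdgfra encodes the alpha receptor for platelet-derived growth factor, through which PDGF-A acts on the myofibroblast precursors that build alveolar septa (ENSMUSG00000029231.15, chromosome 5, 75152292 to 75198215, plus strand). Its normalized counts were 6988, 7362 and 4207 in WT lungs and 3999, 4043 and 3733 in TNF-Tg lungs. WT replicate 3 stood only just above the TNF-Tg lungs, which were close together, and the other WT lungs were far higher. The log2FC was -0.66 (SE 0.20, 95% interval -1.11 to -0.20, adjusted p = 0.0254 by edgeR). With a single lung left out the call was lost 5 times of 6, with edgeR adjusted p-values of 0.0545, 0.0651 and 0.0647 without TNF-Tg replicates 1, 2 and 3 and 0.0629 and 0.0908 without WT replicates 1 and 2. In these 5 fits the log2FC lay between -0.71 and -0.52, and the adjusted p was 0.102 without both TNF-Tg replicate 1 and WT replicate 1 (edgeR). Without WT replicate 3 the log2FC was -0.88 (adjusted p = 0.000429 by edgeR). Genes annotated on the opposite strand cover 6.21% of its exon bases.

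Of the other PDGF genes, the receptor gene Pdgfrb, a gene of pericytes and most fibroblasts, had 7474, 8141 and 5232 normalized counts in WT and 6109, 6904 and 7064 in TNF-Tg lungs, overlapping groups with a log2FC of -0.05 (95% interval -0.44 to 0.33, adjusted p = 0.811 by edgeR). The log2 ratio of Pdgfra to Pdgfrb was -0.10, -0.14 and -0.31 in WT lungs and -0.61, -0.77 and -0.92 in TNF-Tg lungs. All TNF-Tg ratios were lower, including against WT replicate 3, with a difference of -0.58 (p = 0.1 by the same exact test, as low as it can go). Among the 6 genes of this list 1 was called, the ligand gene Pdgfc, which rose from 56.4, 41.2 and 54.2 to 218, 287 and 247 normalized counts (log2FC 2.31, SE 0.20, adjusted p = 7.36e-05 by edgeR).

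Limch1 and Mfap4 had log2FC values that differed by less than the SE of either. Limch1 encodes an actin-associated protein that activates non-muscle myosin II (ENSMUSG00000037736.18, chromosome 5, 66745827 to 67057158, plus strand), with 18862, 16962 and 12192 normalized counts in WT lungs and 8416, 6905 and 7061 in TNF-Tg lungs (log2FC -1.10, SE 0.18, adjusted p = 0.00142 by edgeR). Mfap4 encodes a glycoprotein of elastic microfibrils (ENSMUSG00000042436.12, chromosome 11, 61485431 to 61488900, plus strand), with 20593, 18553 and 13532 in WT and 9260.1, 9188 and 8722 in TNF-Tg lungs (log2FC -0.96, SE 0.16, adjusted p = 0.00188 by edgeR). In both genes WT replicate 3 was the lowest WT lung and still above every TNF-Tg lung. TNF-Tg values were tightly grouped for Mfap4, with an SD of 3.23% of the mean, against 20.7% in WT lungs. Exons of Mapk7 on the opposite strand cover 4.63% of the Mfap4 exon bases.

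Among 20 other microfibril and elastic fiber genes, 12 were lower and 2 higher, with a median log2FC of -0.62. Fbln1, a fibulin of basement membranes and elastic fibers, fell most, from 4376, 3867 and 3148 to 485, 282 and 444 normalized counts (log2FC -3.23, SE 0.22, adjusted p = 2.2e-05 by edgeR). Ltbp2, a microfibril-bound protein, rose most, from 6586, 5872 and 5083 to 24303, 31087 and 26390.1 (log2FC 2.22, SE 0.15, adjusted p = 2.34e-05 by edgeR). Matrix genes of this list thus moved in both directions.

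Ces1d encodes a carboxylesterase that hydrolyzes triacylglycerol and other esters (ENSMUSG00000056973.6, chromosome 8, 93166068 to 93197838, minus strand). It had the smallest fall among the called members together with Pdgfra, from 10041, 10645 and 11190.1 to 6988, 7141 and 6133 normalized counts. The replicates were close in both groups, and the log2FC of -0.65 (SE 0.11, adjusted p = 0.00175 by edgeR) kept its call in all 6 fits without a lung. The carboxylesterase 1 genes are close relatives, but no 100-base window of the Ces1d transcripts (0%) occurs in another GENCODE M21 gene. Of 12 other carboxylesterase 1 and 2 genes 9 were tested, with 7 lower, 0 higher and a median log2FC of -1.50. Their summed level was 76.6 to 84.3 CPM in WT and 26.8 to 29.6 CPM in TNF-Tg lungs, and Ces2b fell most, from 65.9, 39.3 and 65.8 to 7.91, 3.10 and 10.4 normalized counts (log2FC -2.97, SE 0.44, adjusted p = 0.000943 by edgeR).

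Plin2 encodes perilipin 2, the protein that coats lipid droplets in most cells (ENSMUSG00000028494.12, chromosome 4, 86648386 to 86670060, minus strand). Its normalized counts were 3262, 3356 and 2837 in WT lungs and 4152, 6837 and 3244 in TNF-Tg lungs. TNF-Tg replicate 2 was far above all others, TNF-Tg replicate 3 lay among the WT lungs, and the groups overlapped. The log2FC was 0.59 (SE 0.25, 95% interval 0.02 to 1.16, adjusted p = 0.0807 by edgeR), which did not pass the threshold. It passed without TNF-Tg replicate 3 (log2FC 0.79, adjusted p = 0.0199 by edgeR), with DESeq2 (adjusted p = 0.0233) and without a filter on low counts (adjusted p = 0.0405 by edgeR), and without TNF-Tg replicate 2 the value was 0.23 (adjusted p = 0.246 by edgeR). Relative to Tcf21 in the same lung, Plin2 was higher in every TNF-Tg lung. The log2 ratio was 0.82, 0.50 and 0.84 in WT lungs and 3.14, 4.40 and 2.60 in TNF-Tg lungs, a difference of 2.66 (p = 0.1 by the same exact test, as low as it can go).

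Markers of macrophages, which also transcribe Plin2, moved with the genotype. The summed level of 12 macrophage markers was 3122 to 3199 CPM in WT and 12766, 12866 and 11682 CPM in TNF-Tg lungs, with 10 of 12 markers higher and 1 lower and none at 0 counts in any lung. The pan-macrophage gene Cd68 had 1138, 1295 and 1451 normalized counts in WT and 13305, 15952 and 9851 in TNF-Tg lungs, and the scavenger receptor gene Marco, the largest rise, 259.9, 338 and 885 against 58276, 95434 and 49542. The marker that was lower was Siglecf (log2FC -1.27), a lectin gene of alveolar macrophages. TNF-Tg replicate 2, the lung with the most Plin2, also had the most Cd68 and Marco, but its summed macrophage level was close to that of TNF-Tg replicate 1. The part of these cells in the Plin2 values was not tested.

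**Figure D3:**
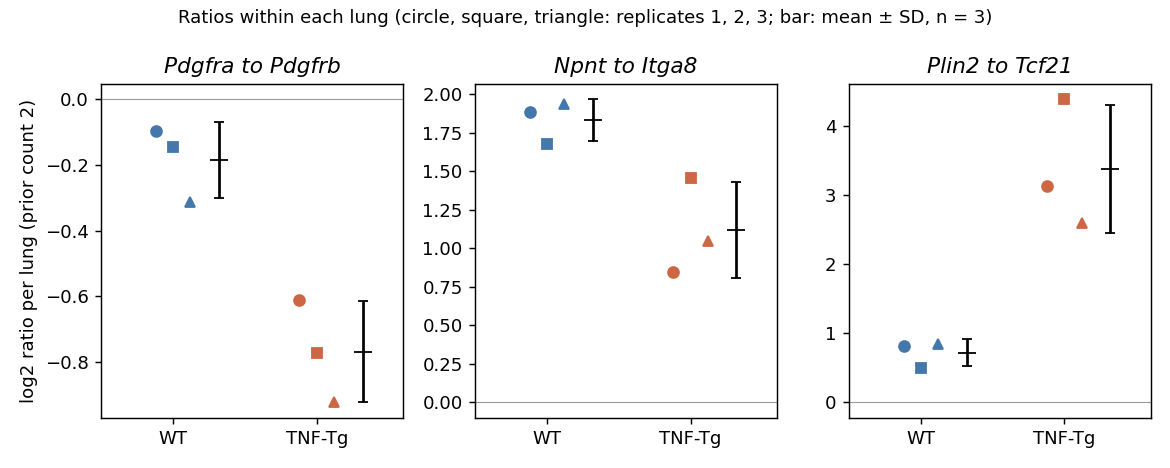
Log2 ratios of Pdgfra to Pdgfrb, Npnt to Itga8 and Plin2 to Tcf21 within each lung (y axis, log2 scale), by genotype, with the mean ± SD over 3 lungs as bars. The TNF-Tg lungs lie below the WT lungs in the first 2 panels and above them in the last, where they also spread more (SD 0.92 against 0.19).

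Other genes of lipid storage moved in both directions. Of 22 such genes 11 were lower and 4 higher in TNF-Tg lungs, with a median log2FC of -0.63. The perilipin gene Plin4 fell most, from 2116, 1258 and 1647 to 173, 278 and 453 normalized counts (log2FC -2.47, SE 0.34, adjusted p = 0.000662 by edgeR). The fatty acid binding protein gene Fabp5 rose most, from 3186, 1907 and 1466 to 10385, 12755 and 7841 (log2FC 2.24, SE 0.30, adjusted p = 0.000597 by edgeR). Pparg, the nuclear receptor of fat storage, had 207, 273 and 242 and 227, 261 and 235 normalized counts, with a log2FC of 0.00 (95% interval -0.36 to 0.36). Fat cell markers, of which Plin1 and Cidec are also in this list, had a summed level of 94.5 to 123 CPM in WT lungs and 5.32, 4.28 and 42.8 CPM in TNF-Tg lungs. This sum includes Slc7a10, which is also among the alveolar fibroblast markers below, and without that gene it was 57.6, 41.0 and 79.9 CPM in WT lungs and 5.24, 4.04 and 41.2 CPM in TNF-Tg lungs. Of the 8 fat cell markers 7 were in the table, 6 were tested, 3 were lower, and Lep had 0 counts in a TNF-Tg lung. The number of fat cell markers called was 6 without TNF-Tg replicate 3, 6 with limma-voom, 5 with the replicate block, 2 without TNF-Tg replicate 1 and WT replicate 1 and 1 with at least 10 counts required in every lung. Adipoq, the defining fat cell gene, had 334, 237 and 657 counts in WT and 13, 12 and 346 in TNF-Tg lungs. TNF-Tg replicate 3 was the only TNF-Tg lung with Adipoq counts in the WT range. The part of fat cells in these values was not tested.

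The members differed widely in level. Per kilobase of exon, Inmt was the highest in WT lungs at 776 ± 60.0 CPM per kilobase (SD, n = 3), followed by Mfap4 at 302 ± 62.6 and Ces1d at 148 ± 8.03. Npnt followed at 109 ± 22.4 and Limch1 at 51.6 ± 11.1. Over these 5 genes, and between Limch1 and Plin2, the ranges of neighbours did not overlap. The next 4, Plin2, Tcf21, Itga8 and Pdgfra, lay between 29.7 ± 2.61 and 20.4 ± 5.69, with ranges over lungs that overlapped between each neighbour and the next, so their order is not fixed by these data. Wnt2 was the lowest at 5.68 ± 0.542. In TNF-Tg lungs Mfap4, at 156 ± 5.03, was above Inmt, at 124 ± 21.9, and the ranges of the pair (150.1 to 159 and 108 to 149) did not overlap. Ces1d, Plin2, Limch1, Npnt and Pdgfra followed in this order with ranges that did not overlap, then Tcf21 (4.54 to 7.53) and Itga8 (4.30 to 7.48) with ranges that did. Wnt2 was again the lowest at 0.695 ± 0.143.

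**Figure D4:**
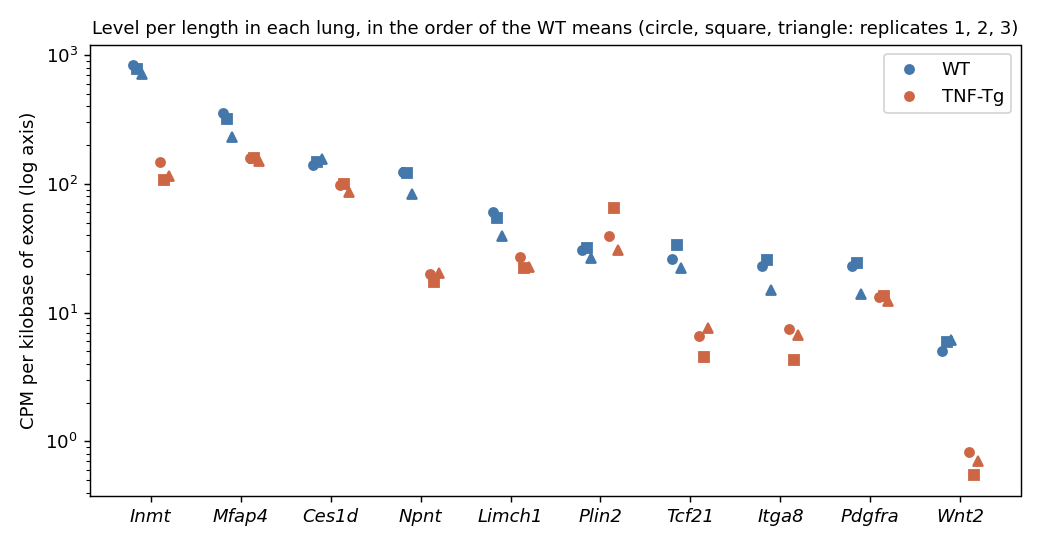
Level of the 10 genes per length in each lung, in CPM per kilobase of exon on a logarithmic y axis, with WT in blue and TNF-Tg in orange and genes in the order of their WT means. Inmt falls from 715 to 835 in WT lungs to 108 to 149 in TNF-Tg lungs, and Plin2 is the gene in which the groups overlap.

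Within a genotype the members did not all vary alike. WT replicate 3 held the lowest value of its group in 8 of the 10 genes, with Pdgfra -0.51, Itga8 -0.47 and Npnt -0.37 from the WT mean on the log2 scale, while Wnt2 and Ces1d were at their highest there. Among TNF-Tg lungs replicate 2 was the lowest for 6 genes, among them Tcf21, Wnt2 and Itga8, and the highest for Plin2, Ces1d and Pdgfra. The SD of WT lungs ran from 5.41% of the mean in Ces1d to 27.9% in Pdgfra, and that of TNF-Tg lungs from 3.23% in Mfap4 to 39.4% in Plin2. WT replicate 3 also had the highest summed level of smooth muscle markers (1244 CPM, against 1034 and 1075 in the other WT lungs) and of mesothelial markers (567 CPM, against 406 and 383), and the part of this in the member values was not tested.

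Levels of 20 further markers of alveolar fibroblasts were also compared, which in bulk RNA cannot test the label of the members. All 20 were detected and tested, none had 0 counts in any lung, 14 were lower and 0 higher in TNF-Tg lungs, and their median log2FC was -1.62. Col13a1, the transmembrane collagen gene by which these fibroblasts are often named, had 1599.7, 1745 and 1256 normalized counts in WT and 357, 304 and 399 in TNF-Tg lungs (log2FC -2.12, SE 0.16, adjusted p = 3.34e-05 by edgeR). The amino acid transporter gene Slc7a10 fell most, from 1179, 1688 and 1457 counts to 2, 7 and 49 (log2FC -6.06, SE 0.65, adjusted p = 0.000188 by edgeR), and it is also expressed by fat cells. Lrat, whose enzyme makes retinyl esters, fell too (log2FC -1.79, SE 0.19, adjusted p = 0.000175 by edgeR). Among the 6 markers that did not pass was the glypican gene Gpc3 (log2FC 0.07, 95% interval -0.34 to 0.48), named after its values were seen.

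Other stromal and lung cell markers were measured beside the members. Of 14 adventitial fibroblast markers 8 were lower and 0 higher (median log2FC -0.80), with Clec3b, which encodes tetranectin, at 2621, 2449.7 and 2258 against 124, 98.2 and 101 normalized counts. Of 8 ductal myofibroblast markers 5 were lower and 3 higher (median log2FC -0.70). Lgr5, near the floor in TNF-Tg lungs as given above, fell most (log2FC -2.63). The autotaxin gene Enpp2 rose most, from 1741, 1814 and 1825 to 11009, 12142 and 12311 normalized counts. Pericyte markers, 9 of 10 of which were in the table, had a median of -0.05 with 3 lower, most of all Cox4i2 (log2FC -1.51), and 2 higher, most of all Kcnj8 (0.85). The number of called pericyte markers, 5 here, was 3 without TNF-Tg replicate 1 and WT replicate 1 and 3 with scaling by total counts alone. Smooth muscle markers had 7 of 8 lower, led by the calponin gene Cnn1 (-2.57, median -1.36), and mesothelial markers 5 of 7, led by the uroplakin gene Upk3b (-1.83, median -1.31). Medians below 0 were thus found for the other stromal lists in this paragraph too. That of the pericyte markers was near the median of 0.03 over all genes tested. Whether the members fell more than these lists was not tested.

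Activated fibroblast markers showed no common direction, with 5 of 12 lower and 4 higher. The fibrillar collagen genes Col1a1 (15308, 19577 and 12253 normalized counts in WT, 6500.4, 5607 and 6559.8 in TNF-Tg lungs, log2FC -1.34, adjusted p = 0.000577 by edgeR) and Col3a1 (log2FC -1.74) were lower. Saa3, an acute phase gene of inflamed fibroblasts and macrophages, rose most in this list (log2FC 7.89, SE 0.61, adjusted p = 3.96e-05 by edgeR).

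Outside the stroma, alveolar type 1 and endothelial markers were lower in 10 of 10 genes each, with median log2FC values of -1.60 and -1.50 and the largest falls in Emp2 (-2.25) and Ramp2 (-2.49). Their summed levels were 5823 to 6510.2 CPM in WT and 1851 to 2169.6 CPM in TNF-Tg lungs for the type 1 markers, and 3971 to 4616 against 1714 to 1969.6 CPM for the endothelial markers. Npnt is also transcribed by type 1 cells, and the part of those cells in its values was not tested. Of 9 alveolar type 2 markers 3 were lower and 1 higher (median -0.30), with the lipid transporter gene Abca3 at -0.89 and the lipocalin gene Lcn2 at 1.43. Lcn2 is also in the activated fibroblast list. The summed level of the type 2 markers was 23143 to 27859 CPM in WT and 17018 to 21518 CPM in TNF-Tg lungs. Leukocyte markers rose in 5 of 8 genes, most in the integrin gene Itgax (2.28), and fell in 1, the neutrophil gene S100a8 (-1.04), with a summed level of 231 to 291 CPM in WT and 688 to 771 CPM in TNF-Tg lungs. All of these are shares of a library's total, and the part of the larger leukocyte and macrophage shares in the lower member values was not tested.

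**Figure D5:**
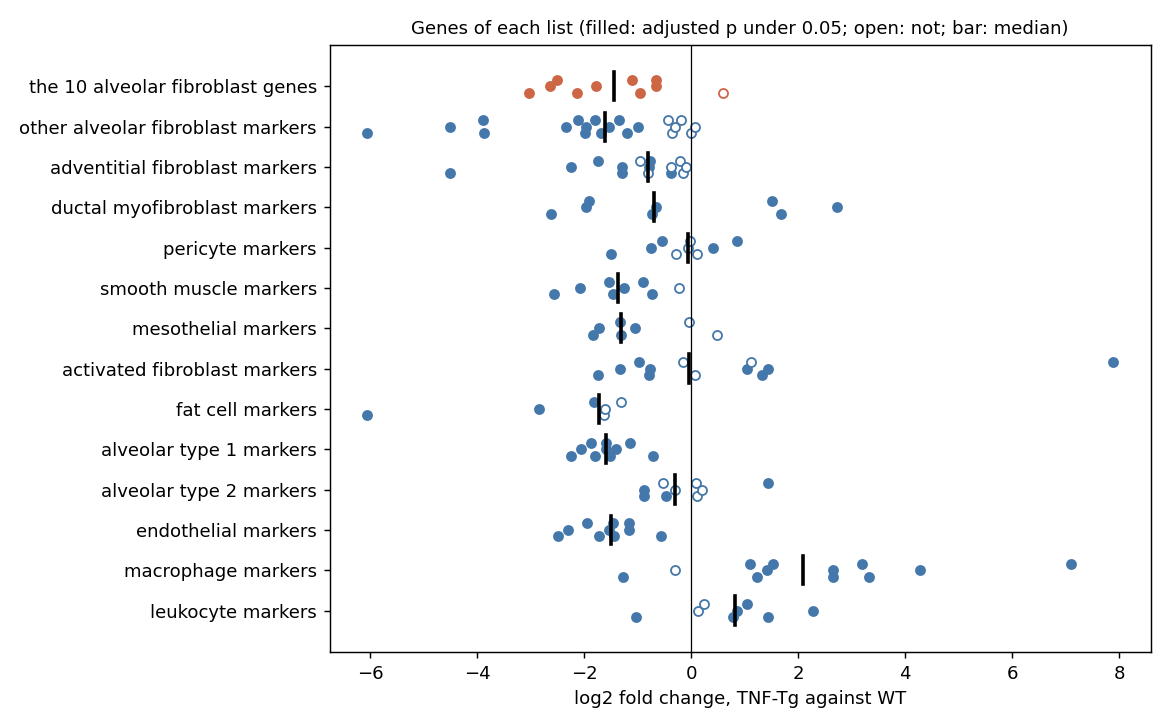
Log2 fold change between TNF-Tg and WT lungs (x axis) of each tested gene in the set of 10 (orange) and in lists of lung cell markers (blue), with filled points for genes past an adjusted p of 0.05 and a black bar at the median. The bar of the 10 genes stands at -1.44, that of pericyte markers at -0.05 and that of macrophage markers at 2.09.

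The genes whose values over the 6 lungs were most like those of Tcf21 were found by the Euclidean distance between log2 CPM profiles, each centred on its own mean, among the 11293 other genes whose mean log2 CPM was 3 or more. The 8 closest were Tnfrsf19 (distance 0.253), Col13a1 (0.311), Casc4, Pon1, Lrat, Hhip, Fam174b and Reck (0.489). Their log2FC values lay between -2.17 and -1.79. Col13a1 and Lrat are among the 20 alveolar fibroblast markers and Hhip is a ductal myofibroblast marker. Tnfrsf19, a TNF receptor family gene, had 1045, 1301 and 809 normalized counts in WT and 228, 195 and 278 in TNF-Tg lungs. Among the members, Itga8 (distance 0.577) and Npnt (0.640) were the closest to Tcf21, with 25 and 44 other genes closer, and Plin2 the farthest (3.52). These distances describe 6 lungs in 2 groups.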

How the data were processed

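Whole lungs of 3 TNF-Tg and 3 WT female mice were sequenced as stranded poly(A) libraries. The submitters' processing notes name Trimmomatic (0.36), STAR (2.5.2b), featureCounts and the build GRCm38.p5 (mm10), and the authors deposited raw counts per gene symbol. The strand setting and annotation of the counting are not given in the sources used here.

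Here, the deposited counts were filtered (filterByExpr), scaled by TMM and tested with edgeR's quasi-likelihood test (version 4.0.16, R 4.3.3), with genotype as the sole term and a threshold of 0.05 on the adjusted p. A standard error is the log2 fold change divided by the square root of F. Alternatives were DESeq2 (version 1.42.0), limma-voom (limma version 3.58.1), other scalings and filters, a replicate block and lungs left out. The tests were checked on simulated data, in which DESeq2 made more false calls than edgeR or limma-voom. Far fewer genes were changed there than were called here, so the check does not cover differences this broad. Each library was from a different mouse. Replicates differed by more than sampling noise (chi-square per degree of freedom 58.8 to 154). Total counts per lung were 25396923 to 32529408.

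The members and lists were chosen with earlier results of these data known. Named are the 10 members, the called gene with the largest rise and fall of each other list, stated partner genes and the 8 genes most like Tcf21. Gpc3 was named after its values were seen, and 1 result is not reported here. Normalized counts are counts over the TMM-scaled total, multiplied by the mean of that total, and ratios used log2 CPM with a prior count of 2. Positions and exon lengths are from GENCODE M21, and promoter windows from RefSeq (GRCm38.p6).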

Additional observations from a re-analysis of the deposited data

How the results depend on the processing

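Over 14 alternatives (DESeq2 or its size factors, limma-voom, scaling by total counts alone, 2 filters, the replicate block, 6 fits without a lung and 1 without TNF-Tg replicate 1 and WT replicate 1) the log2 fold changes of all 10 members kept their sign, and 8 members kept their side of the threshold. The exceptions were Pdgfra and Plin2, given above. The number of genes called between the genotypes was 9096, with 9233 by DESeq2, 9032 by limma-voom and 6064 without TNF-Tg replicate 1 and WT replicate 1. It lay between 7347 and 9164 with single lungs left out.

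A replicate block by number gave 7686 called genes and 9 called members. The deviations of same-numbered TNF-Tg and WT lungs had a correlation of -0.13 on average, against 0.07 for other pairs. Of 6 lungs, 0 correlated best with their own number. With 3 lungs per group these correlations are a description. Whether same-numbered mice shared a litter or were handled together was not tested.

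Of 20 lists, 17 kept their count of called genes within 1.5 times. Fat cell markers had 3 called genes, against 6 with limma-voom, 5 with the block, 6 without TNF-Tg replicate 3 and 1 with at least 10 counts in every lung, where fewer genes were tested. Pericyte markers had 5, against 3 with total counts alone and 3 without TNF-Tg replicate 1 and WT replicate 1. Nephronectin partners had 8, against 5 without those same 2 lungs. The causes were not tested. The 3 ratios kept their direction with a prior count of 0.5 and without each lung, and their p cannot go below 0.1. At this depth 3 counts limit what can be detected, which bears on Lep and on the log2 fold changes of Lgr5, Slc7a10 and Ces2b, each with 3 counts or fewer in a TNF-Tg lung.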
